A study of Mus musculus with 8 samples.

Results

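The 10 genes described here form the switch that lets a cell leave G1: the D-type cyclins *Ccnd1*, *Ccnd2* and *Ccnd3*, their kinases *Cdk4* and *Cdk6*, the Cip/Kip inhibitors *Cdkn1a* (p21), *Cdkn1b* (p27) and *Cdkn1c* (p57), the pocket protein gene *Rb1* and the transcription factor gene *E2f1*. They were taken by symbol, whatever their values, and all 10 were found in both expression tables of dissected mouse sympathetic ganglia. Those tables list 13506 genes at embryonic day (E) 11.5 and 13413 at E14.5, with 12727 genes in both.

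RNA-seq was compared between *Isl1* mutant and control ganglia at 2 stages, with 2 libraries per genotype and about 10 or more embryos of 1 genotype pooled for each RNA. At E11.5 the mutant, given as Isl1-/- in the labels, was the *Isl1* CKO (*Wnt1-Cre;Isl1* f/f), in which Cre under the *Wnt1* promoter deletes the gene in neural crest lineages, and the control was *Wnt1-Cre;Isl1* +/+. Both carried a *Rosa26-tdTomato* reporter, and ganglia were taken under a fluorescence stereoscope. At E14.5 the mutant, given as Isl1 mutation, was the *Isl1* hypomorph (*Isl1* f-neo/f-neo), in which *Isl1* is reduced in the whole embryo and not in neural crest alone, and it was set against wildtype embryos. The labels give neither sex nor batch.

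D cyclins accumulate when growth factors signal, bind CDK4 or CDK6, and the pair phosphorylates RB1. Phosphorylated RB1 lets go of E2F factors, which then switch on the genes of S phase, including cyclin E and *E2f1* itself. INK4 proteins block CDK4 and CDK6 alone, whereas the Cip/Kip proteins stop cyclin E and cyclin A kinases and also help D cyclins assemble with CDK4. Sympathetic neuroblasts are unusual among neurons in that they go on dividing after they have begun to make neurotransmitter enzymes, and cyclin D1 is the D cyclin best known from them and from neuroblastoma, the tumor of this lineage.

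Levels are in FPKM, fragments scaled by transcript length and by the fragments mapped, so they may be compared between genes. The deposited tables give each genotype 1 value, in which the authors pooled both libraries. Read numbers and library-to-library variation are not in them, so no difference below could be checked over libraries here, no test was made, and an order of levels could not be set against an error. A difference was computed as the log2 ratio of (FPKM + 0.1), which understates it for low genes, and was counted from 1.5-fold onward. In bulk tissue, fewer cells of a type and less RNA per cell cannot be told apart.

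*Isl1* itself (chromosome 13, 117088478 to 117099896, mm9) was listed at 133 FPKM in control, 40.0 in CKO, 162 in wildtype and 83.1 in hypomorphic ganglia, so it was lower in both mutants, by log2 ratios of -1.73 and -0.96. Of 10 sympathetic neuron markers, all 10 were present in each column, and *Dbh*, the gene of the enzyme that makes noradrenaline, was at 543, 594, 608 and 568 FPKM in control, CKO, wildtype and hypomorphic ganglia. Markers of other cells were higher in CKO ganglia. Glia and neural crest markers had a summed level of 328 FPKM in control and 717 in CKO ganglia. Of these 9 of 10 were at least 1.5-fold higher, beside 18.9% of all genes. Mesenchyme markers summed to 579 and 1008 FPKM (5 of 8 higher), macrophage and blood markers to 36.4 and 82.3 (6 of 7), and parietal yolk sac genes to 256 and 894 (8 of 8). Endothelial markers summed to 69.3 and 88.9 FPKM, with 1 of 8 that far higher, which is no more than the share of all genes. *Prl8a2*, from the list of trophoblast and decidua genes, was at 0.241 and 48.4 FPKM, with 3 of the 8 listed genes in the table. Erythroid genes took 2.28% of all FPKM in control and 11.2% in CKO ganglia (7 of 8 higher), a share that lacks the globin *Hbb-y*, which was at 7552 FPKM in control ganglia and listed at 0 in CKO ganglia. Such a 0 can be a failed estimate, and the CKO share would then be too low. In wildtype and hypomorphic ganglia at E14.5 the sums were 512 and 580 FPKM for glia, 1409 and 1570 for mesenchyme and 92.3 and 129 for endothelium, and erythroid genes took 1.25% and 1.55% of all FPKM. The endothelial sum differed more there (1.39-fold) than in the CKO (1.28-fold), the glial and mesenchymal sums less. The part of these cells in the differences below was not tested.

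In control ganglia at E11.5 the switch was dominated by 3 genes. *Ccnd1* was the most abundant at 831 FPKM, rank 66 among the 13506 genes, followed by *Cdk4* at 390.0 FPKM (rank 162) and *Cdkn1c* at 340.2 FPKM (rank 185). *Ccnd2*, *Ccnd3* and *Cdkn1b* lay between 36.2 and 50.1 FPKM, *E2f1*, *Rb1* and *Cdkn1a* between 14.7 and 25.1, and *Cdk6* was at 2.56. The 2 kinases of the same cyclins thus differed 152-fold in level. The same 3 genes led in wildtype and hypomorphic ganglia at E14.5, with *Ccnd1* at rank 40 and 36. In CKO ganglia the order was different: *Cdkn1c* came first at 766 FPKM (rank 111), *Cdk4* second at 419, and *Ccnd3* and *Ccnd1* stood next to each other at 125 and 123, *Ccnd1* having rank 669.

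**Figure D1:**
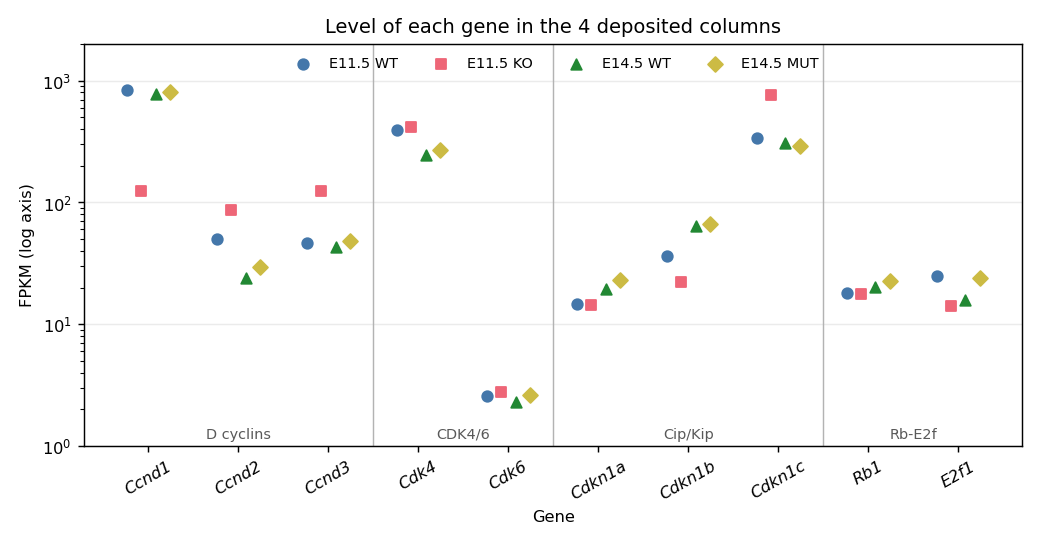
Level of each of the 10 genes in FPKM on a log axis, grouped by role, with 1 point for each deposited column (circle, E11.5 control; square, E11.5 CKO; triangle, E14.5 wildtype; diamond, E14.5 hypomorph). *Ccnd1* stands at 123 FPKM in CKO ganglia and between 782 and 831 in the other 3 columns, while *Ccnd2*, *Ccnd3* and *Cdkn1c* are highest in CKO ganglia.

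In the CKO at E11.5, 3 of the 10 genes were at least 1.5-fold lower (*Ccnd1*, *Cdkn1b* and *E2f1*), 3 were at least 1.5-fold higher (*Ccnd2*, *Ccnd3* and *Cdkn1c*), and 4 lay within 1.5-fold (*Cdk4*, *Cdk6*, *Cdkn1a* and *Rb1*). Of all genes in the table, 12.9% were as far lower and 18.9% as far higher. The 10 genes had a median log2 ratio of 0.04, beside 0.05 for the whole table (quartiles -0.31 and 0.45). After rescaling to equal sums without the erythroid genes, 22.5% of all genes were lower and 12.2% higher, and *Ccnd2*, at a log2 ratio of 0.55, dropped just under the threshold. That rescaling takes the median of all genes to -0.18.

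*Ccnd1* (chromosome 7, 152115836 to 152125774, minus strand, mm9) encodes cyclin D1. It was listed at 831 FPKM in control and 123 FPKM in CKO ganglia, at 782 FPKM in wildtype and at 809 FPKM in hypomorphic ganglia. The CKO value was thus 6.75-fold below its control, a log2 ratio of -2.75, which was the 120th lowest of the 13506 genes. *Isl1* and the division marker *Mki67* (97.2 FPKM in control and 28.5 in CKO ganglia, log2 ratio -1.77) differed less in the same comparison. In the hypomorph the log2 ratio of *Ccnd1* was 0.05, and between the control of E11.5 and the wildtype of E14.5 it was -0.09.

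The other D cyclins went the opposite way in the CKO. *Ccnd2* (chromosome 6, 127075797 to 127101066, minus strand), the cyclin D2 of many neural progenitors, was at 50.1 FPKM in control, 86.4 in CKO, 24.0 in wildtype and 29.5 in hypomorphic ganglia. It was 1.72-fold higher in the CKO and 1.23-fold higher in the hypomorph. *Ccnd3* (chromosome 17, 47642000 to 47736632, plus strand), the cyclin D3 of many blood and differentiating cells, was at 46.6 FPKM in control, 125 in CKO, 43.0 in wildtype and 48.7 in hypomorphic ganglia. It was 2.67-fold higher in the CKO, whereas the other 3 columns stayed between 43.0 and 48.7 FPKM.

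The composition of the D cyclins within a column does not depend on the scaling between columns. *Ccnd1* made up 89.6% of the summed D cyclin FPKM in control ganglia, 36.8% in CKO, 92.1% in wildtype and 91.2% in hypomorphic ganglia. In the CKO *Ccnd3* took 37.3% (5.02% in control) and *Ccnd2* 25.9% (5.40%), so the 3 cyclins had comparable levels there. *Ccnd2* and *Ccnd3* together came to 96.7 FPKM without and 211 FPKM with the deletion. All 3 D cyclins summed to 928 and 334 FPKM. The summed D cyclin level was thus 2.78-fold lower in the CKO, compared with 6.75-fold for *Ccnd1* alone. *Ccnd2* and *Ccnd3* were already in the control sum, so the gap between these folds is not their rise alone. At E14.5 the sums were 849 FPKM in wildtype and 887 in hypomorphic ganglia.

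For each D cyclin, the 3 genes with the most similar pattern over the 4 columns were sought by Euclidean distance of mean-centred log2 values, among 10765 genes. The nearest to *Ccnd1* were *Tfap2b* (distance 0.272), a transcription factor gene of the sympathetic lineage, *Lmo3* (0.358) and *Plcb4* (0.376). *Tfap2b* was at 70.0 FPKM in control, 11.6 in CKO, 85.5 in wildtype and 80.2 in hypomorphic ganglia. The nearest to *Ccnd2* were *Tmem119* (0.0325), *Lsp1* (0.0674) and *Twist1* (0.0714), the last of which is on the mesenchyme marker list and was at 12.4, 22.8, 5.97 and 7.32 FPKM in the same order of columns. The nearest to *Ccnd3* were *Id4* (0.0809), *Ptgr1* (0.0913) and *Cmtm7* (0.116), with *Id4* at 5.32, 13.5, 4.96 and 5.55 FPKM. These are descriptions over 4 pooled values, which share their libraries.

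**Figure D2:**
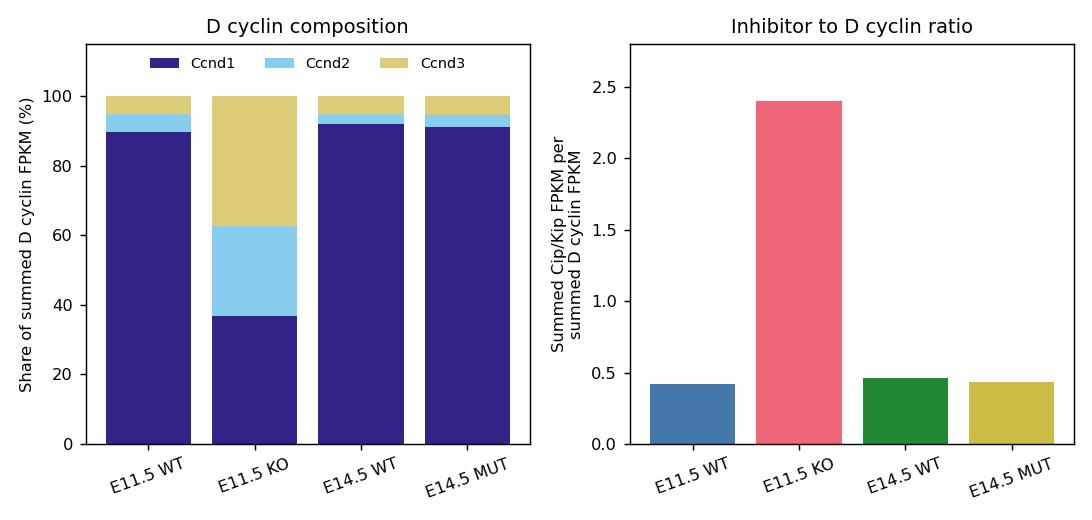
Left, share (%) of *Ccnd1*, *Ccnd2* and *Ccnd3* in the summed D cyclin FPKM of each deposited column. Right, summed FPKM of *Cdkn1a*, *Cdkn1b* and *Cdkn1c* per summed FPKM of the D cyclins. *Ccnd1* makes up 36.8% in CKO ganglia and 89.6% to 92.1% in the other 3 columns, and the ratio on the right is 2.40 in CKO ganglia and 0.421 to 0.461 in the others.

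*Cdk4* (chromosome 10, 126500590 to 126504976, plus strand), the main partner of the D cyclins by level, was at 390.0 FPKM in control, 419 in CKO, 245 in wildtype and 272 in hypomorphic ganglia. *Cdk6* (chromosome 5, 3343893 to 3523218, plus strand) was at 2.56, 2.78, 2.31 and 2.62 FPKM in the same order. *Cdk4* made up 99.3% of the summed kinase level in control and in CKO ganglia and 99.1% in wildtype. Neither kinase reached 1.5-fold in the CKO: the log2 ratios were 0.10 for *Cdk4* and 0.11 for *Cdk6*, and both turned to -0.13 and -0.12 after rescaling without erythroid genes, so no direction can be given. With *Ccnd1* lower and *Cdk4* little different, the level of *Ccnd1* per *Cdk4* was 2.13 in control and 0.294 in CKO ganglia. Per summed CDK4/6 level, the D cyclins stood at 2.36 in control, 0.792 in CKO, 3.43 in wildtype and 3.23 in hypomorphic ganglia.

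The *Cdk4* promoter is shown because MYC and MYCN, whose genes are followed below among the regulators of D cyclins, bind the E-box CACGTG and *Cdk4* is a known MYC target. The stretch is from RefSeq (GRCm38.p6, chr10:127063345-127063534, plus strand, from -190 to -1 relative to the transcription start), with each E-box in capitals.
*Cdk4* promoter: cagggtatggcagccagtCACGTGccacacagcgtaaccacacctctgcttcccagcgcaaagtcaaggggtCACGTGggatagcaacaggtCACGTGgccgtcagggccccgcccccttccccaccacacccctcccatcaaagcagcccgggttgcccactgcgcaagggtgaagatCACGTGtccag
Its 4 E-boxes begin at -172, -118, -98 and -11. Of 32851 promoter windows of the same length (250 bases before to 50 after a start), 7.15% hold at least 1 CACGTG, a motif that reads the same on both strands, and 8 windows (0.0244%) hold 4 or more. A single E-box was found in the *Cdk6* window, at -220, and none in the windows of *Ccnd3*, *Cdkn1a*, *Cdkn1b* and *E2f1*. The mammalian E2F letters TTTGGCGC, TTTCCCGC, TTTCGCGC and TTTGCCGC, on either strand, and the homeodomain letters CTAATG were in 0 of these 8 windows of 6 genes, against 2.26% and 7.36% of all windows. A match is a description and not a site, and no match says only that these letters are not in the window.

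The Cip/Kip inhibitors did not move as a group. *Cdkn1c* (chromosome 7, 150644255 to 150646955, minus strand), the imprinted gene of p57, was at 340.2 FPKM in control, 766 in CKO, 308 in wildtype and 292 in hypomorphic ganglia. It was 2.25-fold higher in the CKO. *Cdkn1b* (chromosome 6, 134870419 to 134875531, plus strand), the gene of p27, which is best known for holding cells out of the cycle at differentiation, was at 36.2 FPKM in control, 22.3 in CKO, 63.7 in wildtype and 66.3 in hypomorphic ganglia. It was 1.62-fold lower in the CKO, opposite to *Cdkn1c*.

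*Cdkn1a* (chromosome 17, 29227924 to 29237667, plus strand), the gene of p21 and a classic p53 target, was at 14.7 FPKM in control, 14.3 in CKO, 19.3 in wildtype and 22.9 in hypomorphic ganglia. Its log2 ratios were -0.04 in the CKO and 0.24 in the hypomorph. Its promoter is shown because it holds a pair of CATG cores with 6 bases between them, the core spacing of a p53 site, which is in capitals (RefSeq, GRCm38.p6, chr17:29090908-29090967, plus strand, from -71 to -12 of the first listed start).
*Cdkn1a* promoter: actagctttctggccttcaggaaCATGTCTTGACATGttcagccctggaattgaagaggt
The pair begins at -48 and was in 1 of the 2 *Cdkn1a* windows and in 0.712% of all promoter windows.

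*Cdkn1c* set the summed inhibitor level, with 87.0% of the Cip/Kip FPKM in control, 95.4% in CKO, 78.8% in wildtype and 76.6% in hypomorphic ganglia. The sums were 391 FPKM in control, 803 in CKO, 391 in wildtype and 381 in hypomorphic ganglia. Set against the D cyclins, the inhibitors stood at 0.421 per D cyclin FPKM in control and at 2.40 in CKO ganglia, a 5.70-fold difference, and at 0.461 and 0.430 in wildtype and hypomorphic ganglia. The plot of composition shows the CKO column alone above 1. For *Cdkn1c* per *Ccnd1*, the values were 0.409 in control and 6.22 in CKO ganglia, while wildtype and hypomorphic ganglia had 0.394 and 0.361. The glial marker sum (328 and 717 FPKM) and the yolk sac sum (256 and 894) were higher in the CKO column too, and their part in the *Cdkn1c*, *Ccnd2* and *Ccnd3* values was not tested.

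*Rb1* (chromosome 14, 73583480 to 73725629, minus strand) was level over the columns, with 18.1 FPKM in control, 17.8 in CKO, 20.2 in wildtype and 22.7 in hypomorphic ganglia. *E2f1* (chromosome 2, 154385143 to 154395628, minus strand), both an activator of S phase genes and an E2F target, was at 25.1 FPKM in control, 14.1 in CKO, 15.9 in wildtype and 23.9 in hypomorphic ganglia. It was 1.77-fold lower in the CKO (log2 ratio -0.83) and 1.51-fold higher in the hypomorph (0.59). It was thus the only one of the 10 genes past 1.5-fold in both mutants, with opposite signs. The mutants differ in stage and in *Isl1* allele, which cannot be told apart here, and the difference between them was not tested. The level of *E2f1* per *Rb1* was 1.38 in control, 0.792 in CKO, 0.787 in wildtype and 1.06 in hypomorphic ganglia.

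In the hypomorph at E14.5, 9 of the 10 genes lay within 1.5-fold, 0 were lower and 1, *E2f1*, was higher. Of all genes 2.12% were as far lower and 2.89% as far higher. The *E2f1* value lay just past the threshold, and *Ccnd2*, at 1.23-fold, was the next. Small differences mostly had 1 sign: 9 of the 10 log2 ratios were above 0, the exception being *Cdkn1c* at -0.08. Their median was 0.17, beside 0.003 for the whole table (quartiles -0.11 and 0.13). The shares of the D cyclins differed by less than 1 percentage point between wildtype and hypomorph for each cyclin.

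**Figure D3:**
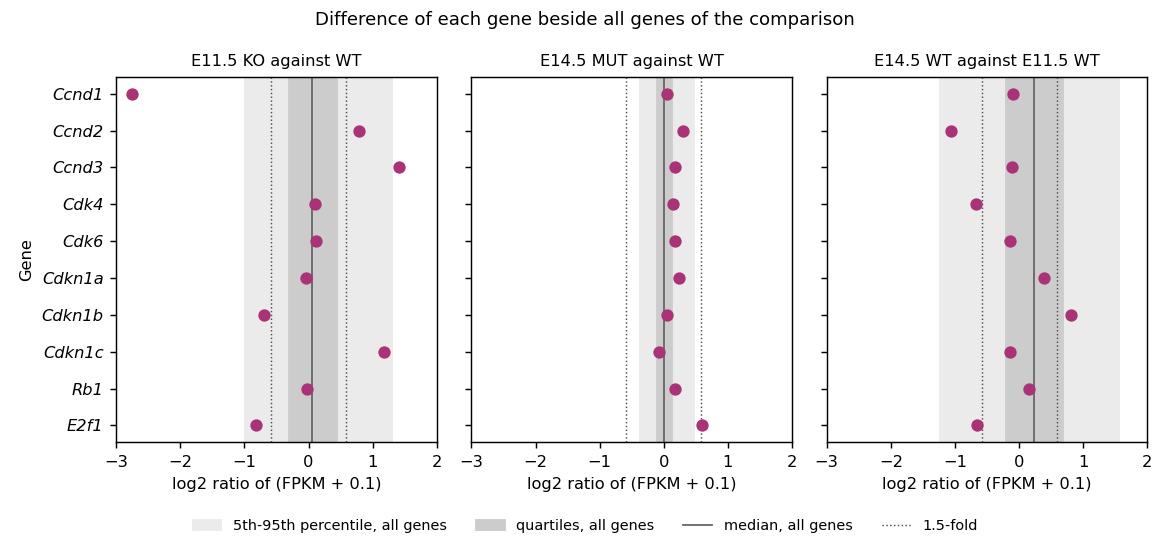
Log2 ratio of (FPKM + 0.1) for each of the 10 genes in the 3 comparisons. Shading gives the quartiles and the 5th to 95th percentiles of all genes, the line their median and the dots 1.5-fold. In the CKO *Ccnd1* lies at -2.75 and *Ccnd3* at 1.42, outside the shading, and in the hypomorph only *E2f1*, at 0.59, is past 1.5-fold.

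Between the control of E11.5 and the wildtype of E14.5, the levels come from separately normalized tables, and the samples also differ in the *Wnt1-Cre* and reporter alleles and in the dissection by fluorescence, so stage and these differences cannot be told apart. Over all 12727 genes the log2 ratios had a median of 0.24. Of the 10 genes, 3 were at least 1.5-fold lower at E14.5 (*Ccnd2*, *Cdk4* and *E2f1*), 1 was higher (*Cdkn1b*) and 6 lay within 1.5-fold. Of all genes 12.7% were as far lower and 29.7% as far higher, or 19.5% and 19.2% when centred on the median.

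The largest difference was that of *Ccnd2*, which was 2.08-fold lower, or -1.29 on the log2 scale relative to the median of all genes. *Cdk4* was 1.59-fold lower (390.0 against 245 FPKM) and *E2f1* 1.58-fold lower (25.1 against 15.9 FPKM). With both columns quantile normalized, *Cdk4* came to a log2 ratio of -0.37, within 1.5-fold. *Cdkn1b* was 1.76-fold higher at E14.5, but relative to the median its log2 ratio was 0.58, just under 1.5-fold. *Cdkn1a* had a log2 ratio of 0.39, so *Cdkn1b* per *Cdkn1a* went from 2.46 to 3.30. The log2 ratios of *Ccnd1* (-0.09), *Cdkn1c* (-0.14) and *Rb1* (0.15) were small, and their sign was the opposite after quantile normalization (0.46, 0.18 and -0.02). *Ccnd1* thus kept a share of about 90% of the D cyclins at both stages (89.6% and 92.1%), while the summed kinase level was 393 FPKM at E11.5 and 248 at E14.5.

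The genes on either side of the switch were followed on lists. Among the regulators of D cyclins, 2 of 6 were at least 1.5-fold lower and 1 of 6 higher in the CKO, where 12.9% and 18.9% of all genes were. The lower genes were *Mycn* and *Gsk3b* (log2 ratio -0.59), and the higher gene was *Fbxo4* (0.77, at 1.91 and 3.32 FPKM). The list mixes genes of different roles, so its counts give no direction for the D cyclins. *Mycn*, the MYC family gene amplified in neuroblastoma, was at 56.0 FPKM in control, 30.3 in CKO, 63.6 in wildtype and 54.6 in hypomorphic ganglia, a log2 ratio of -0.88 in the CKO. *Myc* was at 15.4 FPKM in the control of E11.5 and 44.4 in the wildtype of E14.5, a log2 ratio of 1.52. The hypomorph had 0 of the 6 past 1.5-fold. Of the 4 INK4 inhibitors, *Cdkn2c* (2.02, 3.69, 3.72 and 4.22 FPKM in control, CKO, wildtype and hypomorphic ganglia) and *Cdkn2d* (4.68, 4.56, 2.63 and 2.63) were in the tables. Both were below each single Cip/Kip gene, of which *Cdkn1a* was the lowest at 14.3 to 22.9 FPKM. The log2 ratios of *Cdkn2c* were 0.84 in the CKO, 0.18 in the hypomorph and 0.85 between the stages. Those of *Cdkn2d* were -0.04, 0.002 and -0.81, and both genes were at low levels. The CDK-activating kinase, which CDK4 needs to work, had 0 of 3 genes past 1.5-fold in either mutant, and its cyclin gene *Ccnh* was at 29.1 FPKM in the control of E11.5 and 15.2 in the wildtype of E14.5.

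Downstream of the switch, the genes past 1.5-fold in the CKO were lower on each of 4 lists, and the share past it differed between lists. Of 11 other pocket protein, E2f and Dp genes, 3 were at least 1.5-fold lower and 0 higher (median log2 ratio -0.51), with the repressor gene *E2f8* at 8.23 FPKM in control ganglia and a log2 ratio of -1.02. Of 6 genes of the cyclin E, cyclin A, CDK2 and CDK1 step, 3 were lower and 0 higher (median -0.58), with cyclin A2 gene *Ccna2* at 147 and 83.3 FPKM. *Ccne1*, one of the cyclin E genes, was at 24.9 FPKM in both. Of 16 E2F target genes of the G1/S transition, 11 were lower, 0 were higher and all 16 had a log2 ratio below 0 (median -0.70), led by *Uhrf1*, a factor that maintains DNA methylation, at 92.1 and 35.2 FPKM. Of 8 division markers 6 were lower (median -1.09). The median of all genes there was 0.05, with 12.9% of them lower and 18.9% higher.

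In the hypomorph the genes of the same lists past 1.5-fold were higher. Of the 16 E2F targets 4 were at least 1.5-fold higher and all 16 were above 0 (median 0.52), with the origin licensing gene *Cdc6* at 4.16 FPKM in wildtype and 6.97 in hypomorphic ganglia. Of the cyclin E to CDK1 genes 1 of 6 was higher (median 0.45), *Ccne2* at 7.59 and 12.2 FPKM. Of the division markers 1 of 8 was higher (median 0.51), *Top2a* at 66.3 and 101 FPKM. *Mki67* was at 41.7 and 60.3 FPKM, a log2 ratio of 0.53, just under 1.5-fold. Of the other pocket protein, E2f and Dp genes 0 of 11 were past 1.5-fold (median 0.27, and 9 of 11 above 0). The whole table had a median of 0.003, a 95th percentile of 0.47 and 2.89% of genes higher.

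**Figure D4:**
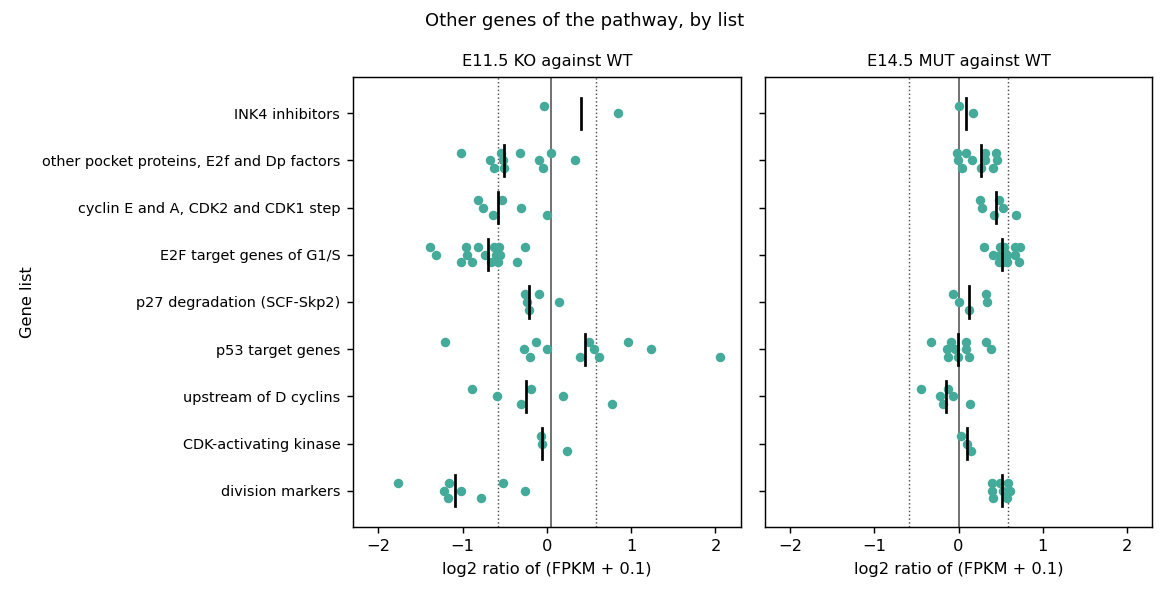
Log2 ratio of (FPKM + 0.1) of each measured gene on the pathway lists, in the CKO against control (left) and the hypomorph against wildtype (right), with black bars for list medians, a line for the median of all genes and dots for 1.5-fold. The E2F targets have a median of -0.70 on the left and 0.52 on the right, and the division markers -1.09 and 0.51.

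Other p53 targets, which like *Cdkn1a* lie downstream of p53, were mixed. Of 12 p53 target genes in the CKO 4 were higher and 1 lower (median 0.45), beside 18.9% and 12.9% of all genes and their median of 0.05, with the stress gene *Gadd45a* at 4.50 and 10.7 FPKM (control, then CKO) and *Zmat3* at 11.8 and 5.02. *Mdm2*, the p53 target that also degrades p53, was at 22.9 and 19.0 FPKM, and *Cdkn1a*, from the same pathway, lay at a log2 ratio of -0.04. In the hypomorph 0 of the 11 measured p53 targets were past 1.5-fold (median -0.003). Of the 5 genes of the SCF-SKP2 complex, which marks p27 for degradation, 0 were past 1.5-fold in either mutant. *Cdkn1b* was 1.62-fold lower in the CKO, where *Skp2* was at 29.5 FPKM in control and 32.6 in CKO ganglia. The complex acts on p27 protein, which was not measured, so these RNA values do not address it.

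From the control of E11.5 to the wildtype of E14.5, all 16 E2F targets and all 8 division markers were at least 1.5-fold lower. Their medians were -1.26 and -1.23 beside 0.24 for all genes, of which 12.7% were as far lower and 29.7% as far higher. *Pcna*, the sliding clamp of DNA polymerase, was at 310.2 and 45.7 FPKM, and cyclin B1 gene *Ccnb1* at 109 and 10.5. Of the cyclin E to CDK1 genes 4 of 6 were lower (median -0.81), with *Ccna2* at 147 and 55.2 FPKM, and of the other pocket protein, E2f and Dp genes 4 of 11 (median -0.23), with the E2F partner gene *Tfdp1* at 72.5 and 28.5. Of the SCF-SKP2 genes 3 of 5 were lower (median -0.64), with *Skp2* at 29.5 and 12.1 FPKM. Of the 11 measured p53 targets 2 were lower and 4 higher, which is near the shares of all genes (12.7% and 29.7%). Among them, the apoptosis gene *Bbc3* was at 4.07 and 14.6 FPKM and *Trp53inp1* at 16.4 and 10.2. *Ccnd1* did not go with these downstream genes: its 831 and 782 FPKM differed 1.06-fold.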

How the data were processed

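Sympathetic ganglia RNA was measured in 8 samples, 2 per genotype and stage. From polyA RNA (SMARTer libraries) the authors estimated FPKM with TopHat and cuffdiff, 1 value per genotype over its 2 libraries, and every deposited gene has an FPKM of 1 or more in at least 1 genotype of its stage. The submitters' processing notes name Bowtie, TopHat 1.3.1, Cuffdiff 1.3.0 and the build dm3, whereas the study's methods name mm9 and other versions. The authors' log2 fold change and p-value columns were not used. Depth per library was not given in the sources used here, so precision is unknown.

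Log2 ratios of (FPKM + 0.1) were computed with Python 3.11.15, numpy 2.4.6 and pandas 2.3.3, and figures with matplotlib 3.10.9. Only the ratio and the 1.5-fold count were run on simulated data, with planted 2-fold differences that they could hardly miss. That run says nothing about the shares, the nearest patterns or the motifs. Gene positions are mm9 (GENCODE vM1) and promoters RefSeq GRCm38.p6, where *Cdk4*, *Cdk6*, *Cdkn1a*, *Cdkn1b*, *Ccnd3* and *E2f1* matched. *Ccnd1*, *Ccnd2*, *Cdkn1c* and *Rb1* had no entry. The 10 genes, the lists and the rules were chosen with earlier results of these data known, and the motifs after the promoters had been seen. Named were the 10 genes, the gene of each pathway list farthest up and down past 1.5-fold at an FPKM of 5 or more, *Mki67*, and the 3 nearest patterns per D cyclin. *Cdkn2c*, *Cdkn2d*, *Ccne1*, *Mdm2*, *Gsk3b*, *Fbxo4*, *Skp2*, *Mycn* and *Myc* where not farthest, and the cell type markers, were named after their values were seen. Alternatives were pseudocounts of 1 and 0.01, an FPKM of 5 or more, centring on the median, rescaling without erythroid genes, quantile normalization and thresholds of 2-fold and 1.2-fold.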

Additional observations from a re-analysis of the deposited data

How the results depend on the processing

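Of 157 alternative log2 ratios of single genes, 153 stayed on their side of 1.5-fold, 4 crossed it (*Ccnd2* in the CKO at 0.55 after rescaling without erythroid genes, *E2f1* in the hypomorph at 0.56 with a pseudocount of 1, and between the stages *Cdk4* at -0.37 after quantile normalization and *Cdkn1b* at 0.58 after centring), and 0 past 1.5-fold changed sign. For the shares and ratios within a column the only alternative was a pseudocount of 1, which can hardly move genes at these levels. All 16 stayed within 1.5 times their value, which therefore says little about them. At 2-fold, 1 gene was lower in the CKO (*Ccnd1*) and 2 higher, 0 were higher in the hypomorph, and between the stages 1 was lower (*Ccnd2*) and 0 higher. At 1.2-fold, 2 genes were higher in the hypomorph (*Ccnd2* and *E2f1*) and 2 between the stages (*Cdkn1a* and *Cdkn1b*). With a pseudocount of 1, 0 genes were higher in the hypomorph, and with centring 0 were higher between the stages. A minimum FPKM of 5 left out *Cdk6*.

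Counts over all genes moved with the settings: lower and higher in the CKO were 1746 and 2552, 652 and 1137 at 2-fold, 3711 and 4697 at 1.2-fold, and 3038 and 1648 after rescaling. In the hypomorph they were 284 and 387, 105 and 131 at 2-fold, 1209 and 1638 at 1.2-fold, 188 and 217 with a pseudocount of 1, and 173 and 225 at a minimum FPKM of 5. Between the stages they were 1620 and 3786, 860 and 1737 at 2-fold, 2907 and 6148 at 1.2-fold, and 2476 and 2447 after centring. No paired analysis was possible because the tables hold 1 value per genotype, and for the same reason no library could be left out. What depth limits is unknown, since the tables hold no read numbers.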
